A study of Glycine max with 24 samples.

Results

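Transcripts of soybean (Glycine max) chromosome 18 were followed through leaves of 4 related lines with and without microbial elicitors. The members are the rows of the deposited table whose identifier begins with Glyma18g, taken in the order of the 5-digit number that follows, which rises along the chromosome. There were 2312 such transcripts, from 2304 loci numbered 220 to 54040, among 41743 transcripts of 41550 loci in all. Of these, 1858 passed the filter on low counts and were tested, among 33214 tested transcripts. The other 454 were not tested, with a median of 32.16 and at most 181 estimated counts summed over 24 libraries.

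The 8 groups, each of 3 libraries, were R-11268 MAMP, R-11268 control, R-11272 MAMP, R-11272 control, LD MAMP, LD control, LDX MAMP and LDX control. R-11268 and R-11272 are 2 recombinant inbred lines (RILs) and LD and LDX are the parents of their population. All groups were detached trifoliolate leaves of plants aged 3 weeks under a 16 h photoperiod, infiltrated with water, sliced and floated on water overnight. Each pool held leaves of 5 plants of a genotype and was divided between 2 dishes. For 30 min the MAMP dish held 5 ml of a solution of flg22 (1 µM) and chitin from crab shell (50 µg), and the control dish a mock solution of water with DMSO, the solvent of flg22. Each RIL stands for 1 line of its population. No source used here pairs the identifiers with gene names, so leaf identity was not checked against marker genes and no roles are given.

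A RIL is made by repeated selfing after a cross, until most of its genome is homozygous. Each of its chromosomes is then a mosaic of segments from either parent, and a difference in expression that is encoded next to the gene itself is inherited with its segment. Microbe-associated molecular patterns (MAMPs) are microbial molecules that plants sense, here the flagellin peptide flg22 of bacteria and chitin of fungal walls. They are bound by receptors at the cell surface, and the signal reaches the nucleus within minutes through calcium, reactive oxygen and protein kinase cascades.

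Libraries held 9780810 to 20827163 estimated counts, of which chromosome 18 took 5.61% to 6.28%. Between 2012 and 2118 of its transcripts had more than 1 estimated count in a library. Levels are given as CPM, which are estimated counts relative to the size of the library, scaled with TMM factors. The deposited values have the form of fitted values. For transcripts of chromosome 18 with all 6 values of a line above 0.1, the ratio of MAMP to control was the same in the 3 replicates of that line (SD under 0.001 on the log2 scale for 100% of them). Replicates therefore show the spread between plant pools and not the scatter of the MAMP effect. Nothing in the labels says that the pools were grown apart, so p-values measure the spread between these samples, which may be technical. In 3 pools, R-11272 replicate 1, LD replicate 2 and LDX replicate 3, both libraries stood apart from the other pools on the first principal component of chromosome 18 (36.4% of variance; 18 to 43.2 against 0 or less). The main counts are also given without these pools.

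Chromosome 18 was chosen by its high share of transcripts called between lines, in control libraries of the parents and of the RILs. The calls between lines below are the values that chose it, and they are described without a test. In control libraries, 129 of the 1858 transcripts (6.94%) were called with a difference of 2-fold or more between LD and LDX, at an edgeR adjusted p under 0.05, against 3.73% of all 33214. They comprised 72 higher in LD (3.88%, against 1.7% of all) and 57 lower in LD (3.07%, against 2.03%). In MAMP libraries, which come from the same pools, 148 were called (7.97%, against 4.22%), 90 higher in LD (4.84%, against 2.43%) and 58 lower (3.12%, against 1.8%). Without the 3 pools that stood apart, the parental count was 194 in control libraries (10.4%, against 6.7%) and 186 in MAMP libraries (10%, against 6.52%). Between the RILs, 69 transcripts were called in control libraries (3.71%, against 1.53%), 27 higher in R-11268 (1.45%, against 0.668%) and 42 lower (2.26%, against 0.861%). In MAMP libraries 65 were called (3.5%, against 1.53%), 23 higher in R-11268 (1.24%, against 0.551%) and 42 lower (2.26%, against 0.979%). The RIL count without the 3 pools was 83 in control libraries (4.47%, against 1.84%) and 92 in MAMP libraries (4.95%, against 2.43%). Differences of 8-fold or more were called for 28 transcripts between the RILs (1.51%, against 0.412%) and for 50 between the parents (2.69%, against 1.06%) in control libraries. The other chromosomes had 2-fold shares of 0.662% to 2.11% between the RILs and 2.19% to 5.5% between the parents. In whole leaves, fewer cells of a type and less RNA per cell cannot be told apart.

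The most divergent transcripts were nearly silent in some lines and well expressed in others. In the 6 R-11268 libraries Glyma18g35940.1 lay between 0.018 and 0.0939 CPM. It had 44.2, 36.3 and 36.2 CPM in R-11272 MAMP libraries and 54, 44 and 44.2 CPM in R-11272 control libraries. It had 45.9, 59 and 39.6 CPM in LD MAMP libraries and 48.9, 64.6 and 42.7 CPM in LD control libraries. In the 6 LDX libraries it lay between 0.0181 and 0.0494 CPM. R-11272 and LD thus stood together at a high level, and no library of R-11268 or LDX came near them. In control libraries LD held 2247 estimated counts and LDX 1.988, a ratio of 1260 with a 95% interval of 349 to 10400 that covers counting error only.

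Glyma18g09720.1 and Glyma18g09730.1, neighbours at lower numbers, had the same pattern. Glyma18g09720.1 averaged 0.0172 ± 0.00384 CPM in R-11268 control libraries, 10.2 ± 3.51 in R-11272, 13 ± 3.31 in LD and 0.0583 ± 0.00889 in LDX (SD, n = 3 each). Glyma18g09730.1 was listed at 0 in all R-11268 libraries, and had 3.16, 3.03 and 3.86 CPM in R-11272 MAMP libraries and 3.25, 3.09 and 3.95 CPM in R-11272 controls. It had 3.82, 4.24 and 2.33 CPM in LD MAMP libraries and 3.97, 4.52 and 2.45 CPM in LD controls, and was at 0 in all LDX libraries. Against a floor of 3 counts over a group, its control level was at least 63.2-fold higher in R-11272 than in R-11268 and at least 59.1-fold higher in LD than in LDX.

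The mirror image was as clear in Glyma18g20770.1. It had 3.43, 3.56 and 4.08 CPM in R-11268 MAMP libraries and 4.77, 4.93 and 5.69 CPM in R-11268 controls, and did not exceed 0.0231 CPM in R-11272. It did not exceed 0.0732 CPM in LD, and had 3.61, 4.15 and 6.41 CPM in LDX MAMP libraries and 3.57, 4.06 and 6.17 CPM in LDX controls. Glyma18g09220.1 averaged 2.96 ± 0.383 CPM in R-11268 controls, was at 0 in the controls of R-11272 and LD, and averaged 4.49 ± 1.07 CPM in LDX controls (SD, n = 3 each). Glyma18g09420.1 averaged 2.77 ± 0.0799 CPM in R-11268 controls, against 0.0227 ± 0.00537 CPM in those of R-11272, and was at 0 in LD controls, against 2.81 ± 0.517 CPM in those of LDX. In these, R-11268 stood near the LDX level and R-11272 near that of LD. Glyma18g11710.1 and Glyma18g10140.1 were paired less closely. Glyma18g11710.1 averaged 2.29 ± 0.212 CPM in R-11268 controls and 0.297 ± 0.0814 in R-11272 (SD, n = 3 each). It averaged 0.0483 ± 0.0237 CPM in LD controls and 1.73 ± 1.39 in LDX. Glyma18g10140.1 was at 0 in R-11268 controls and averaged 10.2 ± 4.74 CPM in those of R-11272. It averaged 6.2 ± 1.02 CPM in LD controls and 0.101 ± 0.0177 in LDX.

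Other transcripts broke this pairing. Glyma18g43980.1 was an LD transcript, with 16.6, 2.72 and 24.5 CPM in LD MAMP libraries and 21.3, 3.59 and 31.8 CPM in LD controls. It was listed at 0 in the 18 libraries of the other 3 lines, and LD replicate 2, a pool that stood apart, was the low value in both treatments. The call between the parents for Glyma18g43980.1 was lost in 7 of 17 alternative settings. Glyma18g43470.1 was missing in LD alone. It had 1.97, 2.22 and 2.1 CPM in R-11268 controls and 1.16, 2 and 1.22 CPM in R-11272 controls. It did not exceed 0.0243 CPM in LD, against 2.48, 1.9 and 1.72 CPM in LDX controls. Glyma18g04740.1 was shared by R-11268 and LD, with 3.06, 4.43 and 3.62 CPM in R-11268 controls, against at most 0.0849 CPM in R-11272, and 4.03, 4.08 and 2.79 CPM in LD controls, against at most 0.0256 CPM in LDX. Here R-11268 and not R-11272 stood with LD.

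**Figure D1:**
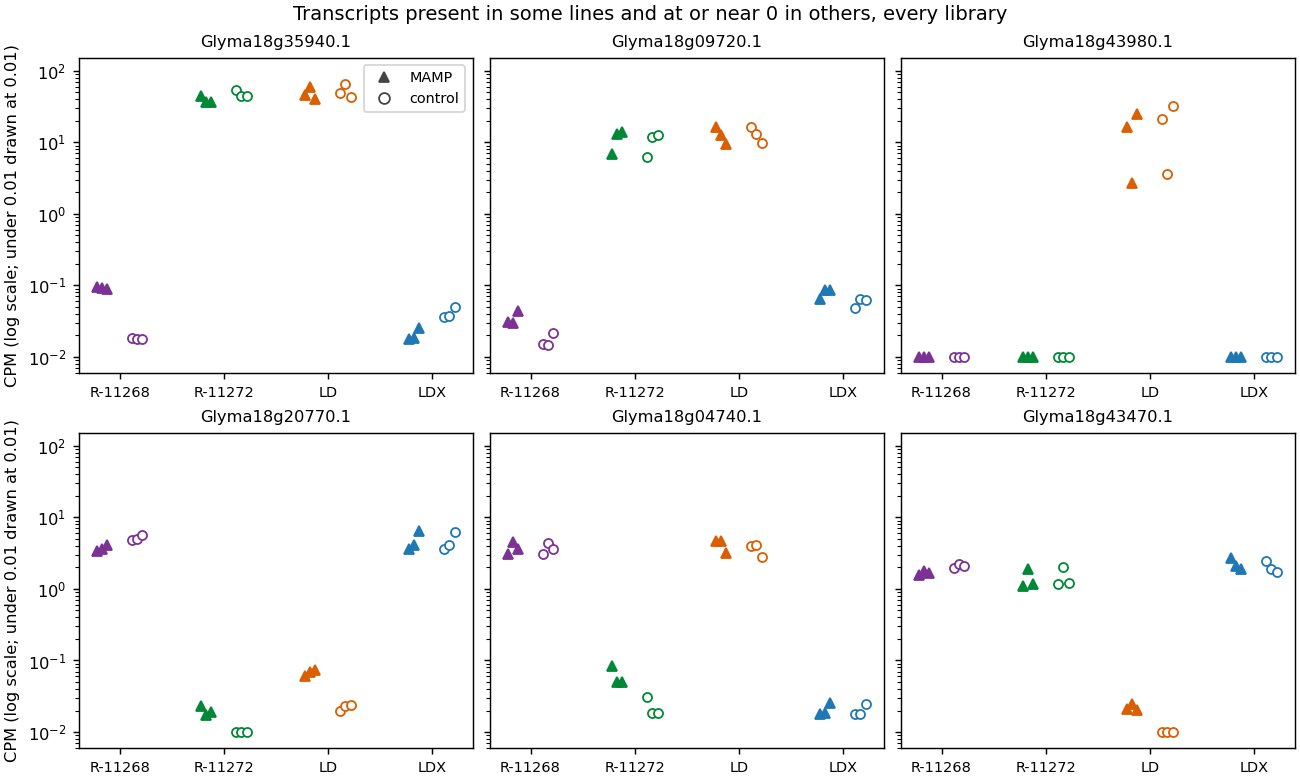
CPM of 6 chromosome 18 transcripts (vertical axis, log scale, values under 0.01 drawn at 0.01) in each library of the 4 lines (horizontal axis), with filled triangles for MAMP and open circles for control libraries. Glyma18g35940.1 and Glyma18g09720.1 are high in R-11272 and LD, Glyma18g20770.1 in R-11268 and LDX, Glyma18g04740.1 in R-11268 and LD, Glyma18g43980.1 in LD, and Glyma18g43470.1 in all lines but LD.

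In all, 32 transcripts had fewer than 3 estimated counts over the 6 libraries of at least 1 line and 100 or more in another, a limit chosen with the values in view. They made up 1.38% of the 2312 transcripts of chromosome 18, and the same limit took 151 of all 41743 (0.362%). Of these, 4 were at 100 or more in R-11272 and LD and under 3 in R-11268 and LDX (Glyma18g09730.1, Glyma18g13090.1, Glyma18g31340.1 and Glyma18g31990.1). Another 5 had the opposite pattern (Glyma18g09220.1, Glyma18g09420.1, Glyma18g09440.1, Glyma18g28870.1 and Glyma18g29590.1). A further 5 were present in LD and under 3 counts in the other 3 lines (Glyma18g39460.1, Glyma18g39470.1, Glyma18g43980.1, Glyma18g46070.1 and Glyma18g47040.1), and 2 were missing in LD alone (Glyma18g43470.1 and Glyma18g46030.1). The 4 and the 5 that divided the RILs had numbers up to 31990, whereas the 5 and the 2 that set LD apart from the other 3 lines had numbers from 39460 on. Glyma18g39470.1, for example, had 3.68, 3.94 and 3.6 CPM in LD MAMP libraries and 2.27, 2.49 and 2.24 CPM in LD controls, and was at 0 elsewhere. Glyma18g13090.1 was at 0 in R-11268, against 1.85, 1.27 and 1.24 CPM in R-11272 controls, and had 1.48, 1.63 and 1.46 CPM in LD controls, against 0 in LDX.

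To place each RIL between its parents, an index was formed for the 129 transcripts called between LD and LDX in control libraries. It is the RIL's fitted log2 level minus that of LDX, divided by the LD minus LDX difference, so 0 is the LDX level and 1 the LD level. Transcripts within 0.25 of 0 were taken as LDX-like, those within 0.25 of 1 as LD-like, values in the middle as between, and the rest as outside. R-11268 was LDX-like for 77 transcripts and LD-like for 9, with 27 between and 16 outside. The 16 included Glyma18g35940.1 (index -0.329) and Glyma18g09720.1 (-0.415), where R-11268 and LDX each held fewer than 3 estimated counts in controls. Outside therefore need not mean a level clearly beyond that of a parent. R-11272 was LDX-like for 51 and LD-like for 37, with 29 between and 12 outside. With the 3 pools that stood apart left out, 194 transcripts were placed. R-11268 was then LDX-like for 96 and LD-like for 25, and R-11272 was LDX-like for 61 and LD-like for 61, so R-11272 no longer had more LDX-like than LD-like transcripts. Both RILs were LDX-like for 33 transcripts and both LD-like for 2. R-11268 was LDX-like and R-11272 LD-like for 23, while the opposite held for 4. All classes share the parental libraries, and 25 of the 129 transcripts had fewer than 100 estimated counts over the 12 control libraries.

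The classes of R-11272 changed along the chromosome. Of the 72 parental calls up to Glyma18g36190.1, R-11272 was LD-like for 35 and LDX-like for 13. Of the 57 from Glyma18g38390.1 on, it was LD-like for 2 and LDX-like for 38. R-11268 showed no such change, with 6 LD-like and 44 LDX-like transcripts up to Glyma18g36190.1 and 3 LD-like and 33 LDX-like from Glyma18g38390.1 on. The 28 tested transcripts numbered 36660 to 38350 held 0 calls of 2-fold or more between the parents or between the RILs. With the pools that stood apart left out, R-11272 was LD-like for 55 and LDX-like for 9 of 106 parental calls up to Glyma18g36190.1, and LD-like for 6 and LDX-like for 52 of 87 from Glyma18g38390.1 on. R-11268 was then LD-like for 12 and LDX-like for 53 of the 106, and LD-like for 12 and LDX-like for 43 of the 87. The division was placed from the classes themselves, so the difference between its sides is a description.

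The transcripts on either side of the division were scarce. Glyma18g36190.1 had 0.246, 1.06 and 0.818 CPM in R-11268 controls, was at 0 in the controls of R-11272 and LD, and had 0.487, 0.951 and 2.27 CPM in LDX controls. Glyma18g38390.1 was at 0 in the controls of R-11268 and R-11272, and had 0.758, 0.829 and 0.643 CPM in LD controls, against 0 in those of LDX. R-11272 thus stood with LD at Glyma18g36190.1 and with LDX at Glyma18g38390.1.

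**Figure D2:**
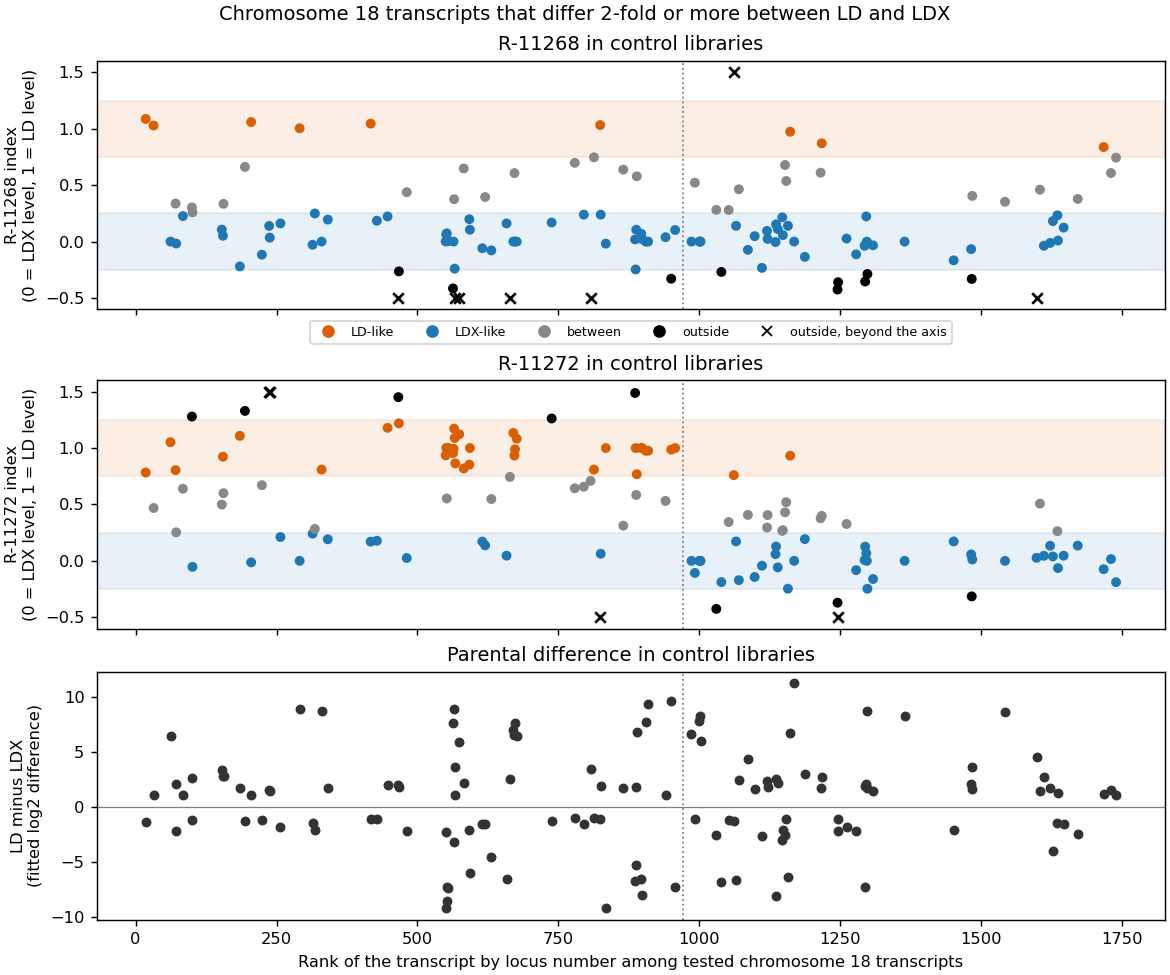
For the 129 chromosome 18 transcripts called with a 2-fold difference between LD and LDX in control libraries, the upper panels show the index of R-11268 and of R-11272 (0 = LDX level, 1 = LD level; crosses lie beyond the axis) and the lower panel the fitted LD minus LDX log2 difference, against rank by locus number. Left of the dotted line, between Glyma18g36190.1 and Glyma18g38390.1, R-11272 has 35 LD-like transcripts, and right of it 2, while R-11268 is mostly LDX-like on both sides.

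Runs of neighbouring transcripts of the same class, counted over LD-like and LDX-like ones, held up to 27 members. R-11268 had LDX-like runs of 19 (numbers 6930 to 18480), 27 (20470 to 43780) and 15 (45360 to 50970). R-11272 had LD-like runs of 13 (9140 to 10610), 5 (12900 to 19420) and 9 (20770 to 36190), and then LDX-like runs of 6 (38390 to 40600), 8 (41620 to 43780) and 24 (43980 to 52260). In the low numbers the classes of R-11272 alternated more often, with no run above 4 before number 9140. The 9 transcripts for which R-11268 was LD-like stood alone, except for the pair Glyma18g00560.1 and Glyma18g00750.1 at the low end.

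The differences between the RILs lay mostly in the lower numbers. Up to Glyma18g36190.1, 61 of 957 tested transcripts (6.37%) were 2-fold calls between R-11268 and R-11272 in control libraries, and from Glyma18g38390.1 on 8 of 873 (0.916%). The division was placed from the classes of the RILs in these same libraries, so this contrast is not a separate result. The parental calls were spread over both stretches, with 72 (7.52%) in the lower numbers and 57 (6.53%) in the higher. Of the 69 transcripts called between the RILs, 44 were also called between the parents, which is 63.8% of the RIL calls and 34.1% of the 129 parental calls. The 2 comparisons use different libraries, though the spread of each transcript was estimated over all 24. R-11272 was on the LD side for 37 of the 44 and R-11268 for 7. This overlap was not counted over the whole table, so whether it is particular to chromosome 18 is not known. In windows of 5000 locus numbers, the share called between the RILs was 5.04% to 11.4% in windows up to 35000 and 0% to 2.41% after it. The share called between the parents was 4.27% to 17.1% over all windows.

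**Figure D3:**
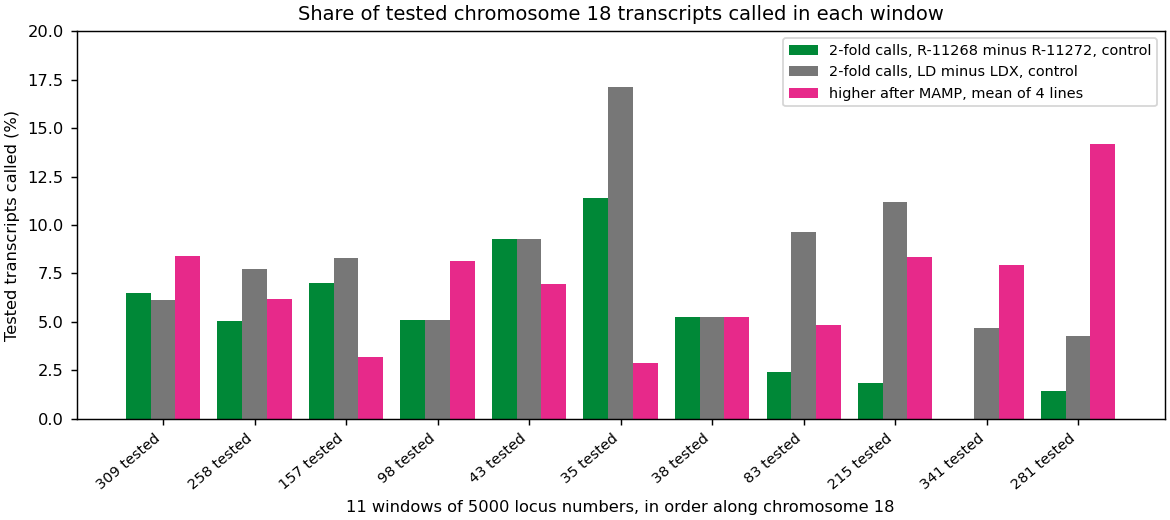
Share of tested chromosome 18 transcripts (vertical axis, %) called in each of 11 windows of 5000 locus numbers (horizontal axis, with the number tested), for 2-fold differences between the RILs, 2-fold differences between the parents, both in control libraries, and a higher mean level after MAMP. The RIL share is 5.04% or more up to the window that ends at 35000 and 2.41% or less after it, while the parental share does not drop in this way and the MAMP share is highest in the last window, at 14.2%.

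At the far end, a few neighbours were higher in R-11268 and LD controls than in those of R-11272 and LDX. Glyma18g51950.1 had 51, 54.9 and 50 CPM in R-11268 controls, 22.7, 25.6 and 24.4 CPM in R-11272 controls, 60.3, 60.2 and 58.1 CPM in LD controls and 24.6, 27.3 and 25.6 CPM in LDX controls. The groups R-11268 and LD did not overlap with R-11272 and LDX. Glyma18g52390.1 averaged 37.3 ± 3.26 CPM in R-11268 controls, 13.8 ± 2.29 in R-11272, 30.9 ± 6.1 in LD and 16 ± 1.13 in LDX (SD, n = 3 each). Glyma18g52260.1 averaged 2.65 ± 0.133 CPM in R-11268 controls, 1.3 ± 0.232 in R-11272, 3.22 ± 0.0607 in LD and 1.51 ± 0.248 in LDX. Glyma18g51920.1 averaged 43.4 ± 1.3 CPM in R-11268 controls, 21.6 ± 4.34 in R-11272, 33.8 ± 3.61 in LD and 18.3 ± 5.26 in LDX. In Glyma18g51920.1 all R-11268 controls lay above those of LD. These 4 were among the 8 RIL calls from Glyma18g38390.1 on. Of the 4, only Glyma18g51950.1 and Glyma18g52260.1 were also 2-fold calls between the parents. The index of R-11268 was 0.838 (LD-like) and 0.744 (between) in that order. The rest of the 8 were Glyma18g40200.1, Glyma18g41450.1, Glyma18g41950.1 and Glyma18g42390.1. These transcripts were named after their values were seen.

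Near the other end, LD stood high in neighbouring transcripts numbered 2580 to 2610, also chosen after their values were seen. Glyma18g02580.1 averaged 49.9 ± 7.42 CPM in R-11268 controls, 123 ± 34.4 in R-11272, 389 ± 147 in LD and 39.1 ± 14.4 in LDX (SD, n = 3 each). Glyma18g02600.1 averaged 0.757 ± 0.0703 CPM in R-11268 controls, 4.13 ± 0.944 in R-11272, 4.79 ± 0.782 in LD and 0.69 ± 0.0925 in LDX. Glyma18g02610.1 averaged 143 ± 3.32 CPM in R-11268 controls, 239 ± 110 in R-11272, 516 ± 92.5 in LD and 75.1 ± 9.56 in LDX. The index of R-11272 was 0.499 for Glyma18g02580.1, 0.923 for Glyma18g02600.1 and 0.6 for Glyma18g02610.1. That of R-11268 was 0.106, 0.052 and 0.335 in the same order. Between them, Glyma18g02590.1 averaged 111 ± 12.2 CPM in R-11268 controls, 730 ± 583 in R-11272, 539 ± 218 in LD and 163 ± 120 in LDX, with its highest value, 1400 CPM, in R-11272 replicate 1, a pool that stood apart. Glyma18g02610.1 rose with MAMP, with a mean log2 response of 0.90 (edgeR adjusted p = 0.000322), and the other 3 were not called.

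The question of the treatment was which transcripts respond to MAMP within 30 min, and whether the lines respond alike. Averaged over the 4 lines, 150 of the 1858 transcripts rose (8.07%, against 7.75% of all 33214) and 32 fell (1.72%, against 2% of all), at an edgeR quasi-likelihood adjusted p under 0.05. The share of chromosome 18 that responded was thus near that of the whole table. Changes of 2-fold or more were called for 82 risers (4.41%, against 4.59%) and 3 fallers (0.161%, against 0.163%), and 10 transcripts passed 8-fold (0.538%, against 0.994%). A fit with the replicate number as a block called 423 risers and 613 fallers, 644 changes in R-11268, 892 in R-11272, 878 in LD and 753 in LDX, and 1014 differences over the lines, but fitted values leave no replicate error under the block, so these counts are not used. The median log2 response over all tested chromosome 18 transcripts was -0.03, as it was over the whole table at 2 decimals. Among the risers 146 of 150 had a positive response in each line. The median log2 response of the 150 was 1.097, against 1.246 for all called risers of the whole table. Among the fallers 26 of 32 had a negative response in each line. The median of the 32 was -0.55, against -0.51 for all called fallers. Without the 3 pools that stood apart, 188 rose (10.1%, against 10.2% of all) and 167 fell (8.99%, against 8.11%), and these held 147 of the 150 and 31 of the 32.

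Within single lines, 58 rose in R-11268 (3.12%, against 3.16%), 75 in R-11272 (4.04%, against 3.9%), 93 in LD (5.01%, against 4.38%) and 69 in LDX (3.71%, against 3.47%). Fallers numbered 5 in R-11268 (background 0.232%), 7 in R-11272 (0.406%), 3 in LD (0.292%) and 4 in LDX (0.31%). A rise was called in each of the 4 lines for 46 transcripts (2.48%, against 2.42%). The risers had median log2 responses of 0.95 in R-11268, 1.08 in R-11272, 1.17 in LD and 0.97 in LDX. The counts within lines moved in both directions with the pools that entered the fit, in which the lines share 1 estimate of the spread. Without the 3 pools that stood apart, rises and falls together numbered 144 in R-11268 (7.75%, against 8.26%), 193 in R-11272 (10.4%, against 9.51%), 155 in LD (8.34%, against 7.36%) and 122 in LDX (6.57%, against 6.52%). With all pools, they numbered 63 in R-11268 (3.39%, against 3.39%), and 34 without its replicate 1. They numbered 82 in R-11272 (4.41%, against 4.3%), and 47 without its replicate 2. They numbered 96 in LD (5.17%, against 4.67%), and 53 without its replicate 1, and 73 in LDX (3.93%, against 3.78%), and 39 without its replicate 2.

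Glyma18g04770.1 was the best measured of the strong risers. It had 182, 185 and 236 CPM in R-11268 MAMP libraries, against 17.3, 17.5 and 22.5 CPM in R-11268 controls. It had 249, 146 and 144 CPM in R-11272 MAMP libraries, against 18.9, 11 and 10.9 CPM in controls. In LD it had 243, 341 and 372 CPM after MAMP, against 6.45, 9.3 and 9.98 CPM in controls. In LDX it had 162, 194 and 306 CPM after MAMP, against 6.45, 7.65 and 11.8 CPM in controls. No MAMP library overlapped with a control library, and each line rose more than 8-fold. The mean log2 response was 4.25 (SE 0.18, edgeR adjusted p = 1.13e-12), and 12 MAMP libraries held 17.8 times the control level (95% counting interval 17.1 to 18.5).

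Among risers that averaged at least 20 estimated counts, Glyma18g06810.1 had the highest mean response, a log2 value of 5.84 (SE 0.65, edgeR adjusted p = 1.76e-06). It held 1410 estimated counts over the 12 MAMP libraries and 29 over the 12 controls, a scaled ratio of 47.8 (33.1 to 71.6). It had 5.66, 4.6 and 4.21 CPM in R-11268 MAMP libraries and 35.4, 2.93 and 2.86 CPM in those of R-11272. It had 7.77, 10.7 and 2.08 CPM in LD MAMP libraries and 2.52, 4.32 and 21.4 CPM in those of LDX. The highest controls were 1.02 CPM in R-11272 replicate 1 and 0.284 CPM in LDX replicate 3, from the same pools as the highest MAMP values. Its mean response lay between 5.55 and 5.97 in the alternative settings tried, among them those without these pools. Since the replicates of a line share a ratio, leaving out a pool could hardly move this value.

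Several other risers were high in the same pools. Glyma18g53080.1 had 449 CPM in R-11272 MAMP replicate 1 and 424 CPM in LDX MAMP replicate 3, against 35.8 to 80.6 CPM in the other MAMP libraries, and its mean response was 3.32 (SE 0.57, edgeR adjusted p = 0.000307). Its neighbour Glyma18g53070.1 had 56.3 and 23.5 CPM in these libraries, against 1.28 to 4.18 CPM in the others (mean response 3.90, SE 0.75, edgeR adjusted p = 0.00104). Glyma18g14900.1 had 168 and 240 CPM there, against 35.2 to 75.2 CPM in the others (mean response 4.39, SE 0.43, edgeR adjusted p = 3e-07). Glyma18g50700.1 had 130 and 274 CPM there, against 25.4 to 102 CPM in the others (mean response 2.95, SE 0.48, edgeR adjusted p = 0.000164). Their controls were high in the same pools, which the shared ratio within a line requires. What these pools share was not tested.

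Glyma18g03070.1 had 139 to 267 CPM in the 12 MAMP libraries and 21 to 43.1 CPM in the controls, with a mean response of 2.60 (SE 0.10, edgeR adjusted p = 3.02e-13). Glyma18g42610.1 had 18.9 to 38.5 CPM after MAMP and 1.38 to 4.01 CPM in controls (mean response 3.61, SE 0.14, edgeR adjusted p = 5.87e-13). Glyma18g20470.1 had 3.97 to 17.4 CPM after MAMP and 0.427 to 2.31 CPM in controls (mean response 3.14, SE 0.14, edgeR adjusted p = 1.96e-12). Its control level was 0.757 ± 0.0856 CPM in R-11268, 0.63 ± 0.119 in R-11272, 2.09 ± 0.363 in LD and 0.564 ± 0.187 in LDX (SD, n = 3 each), so both RILs stood near LDX. Glyma18g50480.1 had 1.27 to 5.47 CPM after MAMP and 0.0529 to 0.635 CPM in controls (mean response 4.17, SE 0.29, edgeR adjusted p = 1.94e-09). Its 3 highest MAMP values came from the 3 pools that stood apart, with 5.47 CPM in R-11272 replicate 1, 4.59 CPM in LD replicate 2 and 4.77 CPM in LDX replicate 3. All 10 of these risers were chosen with a positive response in 4 of 4 lines. The call held in the settings in which it was recomputed, among them the replicate block, whose counts are not used.

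**Figure D4:**
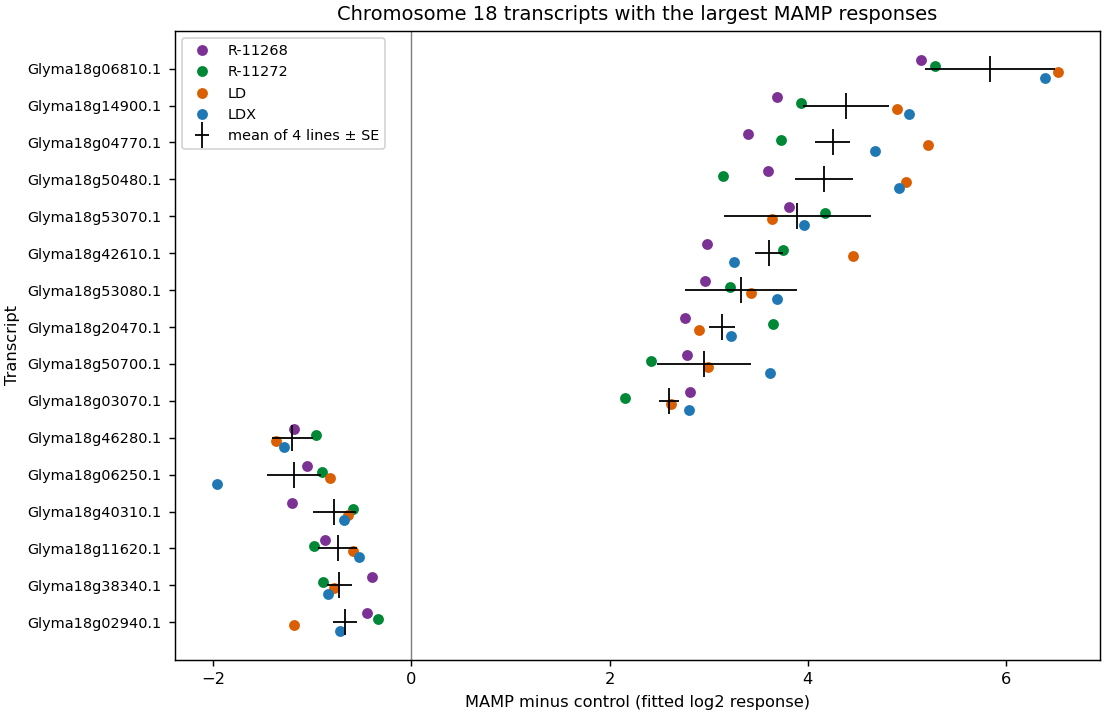
Fitted log2 MAMP response (horizontal axis) of the 10 risers and 6 fallers with the largest mean response among chromosome 18 calls that averaged at least 20 estimated counts and had the same sign in all lines, with a point for each line and a vertical tick with SE for the mean of 4 lines. Means run from 5.84 for Glyma18g06810.1 to -1.20 for Glyma18g46280.1, and every point lies on the same side of 0 as its mean, as the choice required.

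Falls were smaller than rises. Glyma18g46280.1 had 1.95, 1.74 and 0.943 CPM in R-11268 MAMP libraries, against 4.46, 3.95 and 2.16 CPM in controls, and 2.18, 1.57 and 1.13 CPM in R-11272 MAMP libraries, against 4.19, 3 and 2.16 CPM in controls. It had 2.26, 2.88 and 2.8 CPM in LD MAMP libraries, against 5.78, 7.56 and 7.24 CPM in controls, and 1.3, 0.57 and 1.46 CPM in LDX MAMP libraries, against 3.22, 1.4 and 3.52 CPM in controls. It was lower after MAMP in each line, and so in every pool, since the replicates of a line share a ratio. Its MAMP and control libraries overlapped in R-11272 and LDX. Its mean response was -1.20 (SE 0.20, edgeR adjusted p = 0.000281). Glyma18g06250.1 had a mean response of -1.18 (SE 0.27, edgeR adjusted p = 0.00611), with 3.65 ± 0.196 CPM in LDX MAMP libraries and 14.3 ± 0.621 CPM in LDX controls (SD, n = 3 each). In the other 3 lines its response was between -1.05 and -0.82. Glyma18g40310.1 fell by 0.78 on the log2 scale (edgeR adjusted p = 0.024), a call lost without R-11268 replicate 1, without R-11272 replicate 2 or without LD replicate 2 (edgeR adjusted p up to 0.0606). Glyma18g11620.1 fell by 0.75, Glyma18g38340.1 by 0.73 and Glyma18g02940.1 by 0.67 on the log2 scale (edgeR adjusted p = 0.0157, 0.000495 and 0.000438).

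Some risers had neighbouring numbers. Of the 150, 66 stood in 25 runs of at least 2 risers that follow each other among tested transcripts, a pattern noted with the values in view and given without a test. Such runs were not counted on other chromosomes, so whether this number is unusual is not known. The longest run had 7 members, Glyma18g48900.1 to Glyma18g48970.1, with mean log2 responses of 1.61 to 2.29. Glyma18g48910.1 in this run averaged 99.9 ± 24.6 CPM in R-11268 MAMP libraries, against 23.4 ± 5.82 CPM in controls, and 174 ± 101 CPM in R-11272 MAMP libraries, against 42.5 ± 24.7 CPM in controls. It averaged 134 ± 22.6 CPM in LD MAMP libraries, against 25.7 ± 4.38 CPM in controls, and 176 ± 91.9 CPM in LDX MAMP libraries, against 38 ± 19.4 CPM in controls (SD, n = 3 each). A run of 5 went from Glyma18g51730.1 to Glyma18g51770.1 (0.60 to 1.36), and a run of 4 from Glyma18g53180.1 to Glyma18g53230.1 (0.61 to 1.64). The locus Glyma18g44030 has 2 transcript models in the table, and both rose, by 2.36 on the log2 scale (edgeR adjusted p = 2.4e-13) and 2.42 (edgeR adjusted p = 0.00352). The authors' treatment of reads shared by similar genes was not given in the sources used here, so like responses of near-identical neighbours could share reads. The window of the highest numbers, from 50001 on, held 40 risers among 281 tested transcripts (14.2%), the highest share of the 11 windows.

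Within such runs, lines could differ in level and still respond. The run of 4 from Glyma18g03040.1 to Glyma18g03070.1 rose by 2.41 to 2.60 on the log2 scale. Glyma18g03050.1 had 1.86, 1.99 and 2.38 CPM in R-11268 MAMP libraries, against 0.392, 0.418 and 0.504 CPM in controls, and 16.3, 12.8 and 12.7 CPM in R-11272 MAMP libraries, against 2.51, 1.96 and 1.96 CPM in controls. It had 13.7, 11.1 and 15.9 CPM in LD MAMP libraries, against 1.84, 1.54 and 2.17 CPM in controls, and 2.55, 4.42 and 2.52 CPM in LDX MAMP libraries, against 0.479, 0.82 and 0.46 CPM in controls. R-11272 stood with LD and R-11268 with LDX in both treatments, while the log2 response was 2.21 in R-11268, 2.72 in R-11272, 2.86 in LD and 2.45 in LDX. The neighbour Glyma18g03060.1 had no such division, with 12.6 ± 1.32 CPM in R-11268 controls, 12.4 ± 0.859 in R-11272, 17.2 ± 3.52 in LD and 14.9 ± 4.52 in LDX (SD, n = 3 each).

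Glyma18g50710.1, next to Glyma18g50700.1, was low in LD alone. The RILs had 26.3 to 64.7 CPM in MAMP libraries and 12.1 to 30.7 CPM in controls. LD had 2.63, 2.87 and 2.34 CPM in MAMP libraries, against 1.35, 1.51 and 1.21 CPM in controls, and LDX had 29.8 to 90.8 CPM in MAMP libraries, against 12.3 to 36.4 CPM in controls. LD did not overlap with the other lines in either treatment. The log2 response was 1.17 in R-11268, 1.08 in R-11272, 0.95 in LD and 1.31 in LDX. Glyma18g03320.1 had 254 ± 23.2 CPM in R-11268 MAMP libraries, against 75.8 ± 6.92 CPM in controls, and 184 ± 16.1 CPM in R-11272 MAMP libraries, against 33.6 ± 2.79 CPM in controls. It had 403 ± 81.1 CPM in LD MAMP libraries, against 72.4 ± 15.6 CPM in controls, and 241 ± 40.6 CPM in LDX MAMP libraries, against 33.8 ± 5.97 CPM in controls (SD, n = 3 each). In controls R-11268 stood with LD and R-11272 with LDX, while the R-11268 MAMP mean was close to that of LDX. These transcripts were named after their values were seen.

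Few differences between the lines in the MAMP response were called. A test of the 3 response differences over the 4 lines (edgeR F test) called 4 of 1858 transcripts (0.215%, against 0.148% of all 33214), and 72 had an unadjusted p under 0.05 (3.88%, against 3.97% of all). Leaving out 1 pool at a time gave 0 to 3 calls, and without the 3 pools that stood apart there were 10 (0.538%, against 0.428%). The alternative settings counted below for the 4 calls include the replicate block, which kept all 4 but is not used here. Between R-11268 and R-11272, 1 transcript was called (background 0.0331%). A p that misses the threshold does not show that the responses were equal, and the number of pools limits what could be seen. So does the spread between pools, which enters the error of these tests.

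Glyma18g42850.1 was the transcript called between the RILs. It had 1.64, 1.49 and 1.54 CPM in R-11268 MAMP libraries, against 2.33, 2.11 and 2.2 CPM in controls, and 2.8, 1.99 and 2 CPM in R-11272 MAMP libraries, against 1.45, 1.02 and 1.04 CPM in controls. It had 4.35, 3.29 and 3.49 CPM in LD MAMP libraries, against 2.79, 2.17 and 2.26 CPM in controls, and 1.48, 1.36 and 1.21 CPM in LDX MAMP libraries, against 2.07, 1.89 and 1.65 CPM in controls. The MAMP libraries were above the controls in R-11272 and LD and below them in R-11268 and LDX, with no overlap within a line. The log2 response was -0.53 in R-11268, 0.95 in R-11272, 0.61 in LD and -0.47 in LDX. The RIL difference was -1.47 (SE 0.25, edgeR adjusted p = 0.0407), and the F test gave an edgeR adjusted p of 0.0129, which missed 0.05 in 6 of 16 alternative settings, all of them without a pool (up to 0.0857).

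Glyma18g18920.1 was called higher after MAMP in R-11272 and lower in LD. It had 3.38, 2.75 and 3.68 CPM in R-11268 MAMP libraries, against 4.53, 3.68 and 4.95 CPM in controls. In R-11272 it had 18.1, 20.7 and 22.7 CPM after MAMP, against 10, 11.4 and 12.6 CPM in controls (log2 response 0.85, edgeR adjusted p = 0.00405). In LD it had 3.53, 3.5 and 3.29 CPM after MAMP, against 5.92, 6.01 and 5.56 CPM in controls (-0.76, edgeR adjusted p = 0.0134). In LDX it had 6.25, 6.55 and 8.94 CPM after MAMP, against 6.8, 7.04 and 9.46 CPM in controls. Every R-11272 library was above all libraries of the other 3 lines with the same treatment. The F test gave an edgeR adjusted p of 0.0272, lost in 8 of 17 alternative settings.

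Glyma18g00750.1 responded with the same sign in each line and to unequal extents. It had 4.28, 4.82 and 5.83 CPM in R-11268 MAMP libraries, against 3.38, 3.79 and 4.62 CPM in controls, and 9.18, 9.15 and 8.2 CPM in R-11272 MAMP libraries, against 2.72, 2.69 and 2.43 CPM in controls. It had 10.9, 10.7 and 12.7 CPM in LD MAMP libraries, against 3.62, 3.65 and 4.28 CPM in controls, and 3.83, 2.64 and 3.56 CPM in LDX MAMP libraries, against 2.15, 1.47 and 1.95 CPM in controls. The log2 response was 0.34 in R-11268, 1.75 in R-11272, 1.57 in LD and 0.83 in LDX, and that of R-11268 was not called. The F test gave an edgeR adjusted p of 0.044, lost in 12 of 16 alternative settings. The call of Glyma18g35940.1 (edgeR adjusted p = 0.0125) rests on 5.96 estimated counts over 6 R-11268 libraries and 2.98 over 6 LDX libraries, and was lost in 14 of 17 settings.

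**Figure D5:**
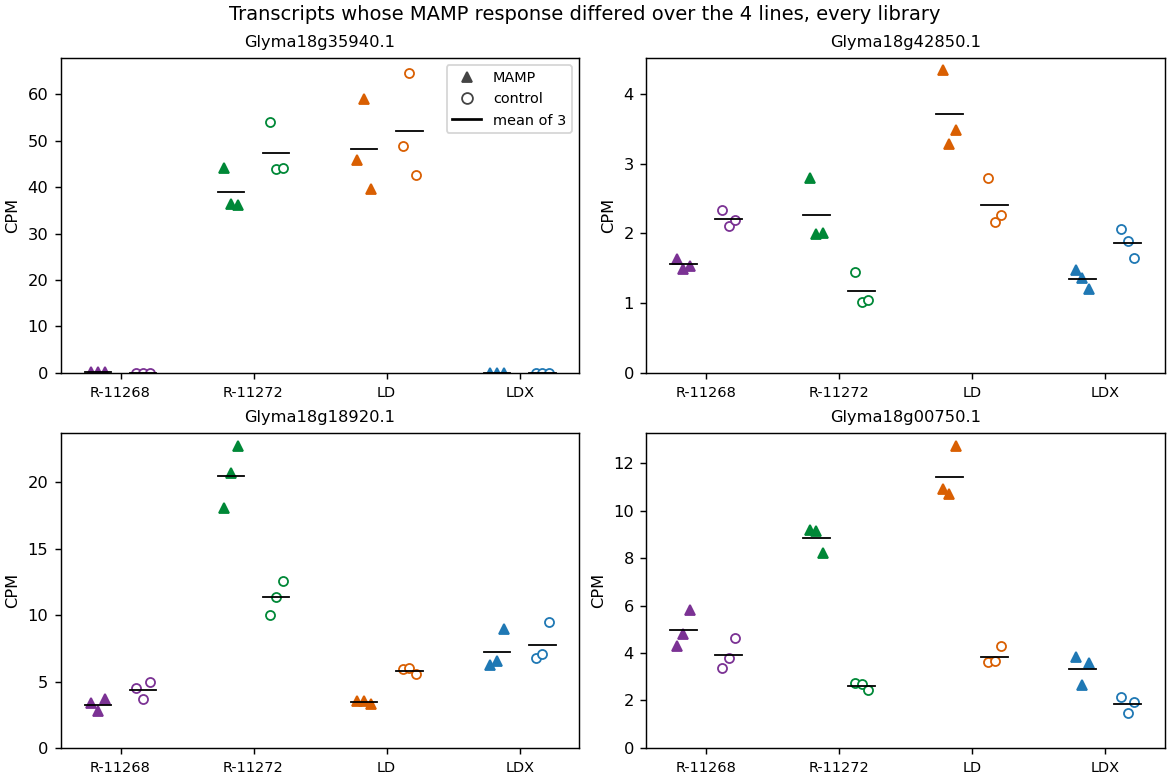
CPM (vertical axis, from 0) in each library of the 4 lines (horizontal axis) for the 4 transcripts called by the F test of response differences, with filled triangles for MAMP, open circles for control libraries and a line at each mean of 3. Glyma18g42850.1 is higher after MAMP in R-11272 and LD and lower in R-11268 and LDX, Glyma18g18920.1 is higher after MAMP in R-11272, and Glyma18g00750.1 has its widest gaps in R-11272 and LD.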

How the data were processed

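RNA was sequenced from 24 leaf libraries in 8 groups of 3, prepared with the TruSeq kit, per the labels' protocols. The deposited table holds estimated counts per transcript, made by the authors in a step not given in the sources used here. The submitters' processing notes list the tools TopHat 1.4.1, Bowtie 0.12.7 and Cufflinks 1.1.0. Also not given in the sources used here were the build, the annotation and the treatment of multiply matching reads. Column totals differ like library sizes and values need not be whole, so they were read as estimated counts. Column names ending in C were taken as control and those ending in P, which the labels do not explain, as MAMP. There were 0 other columns of per-sample values. Identifiers matching the supplied table of gene names numbered 0, and no sequences were used here.

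Values were rounded to whole numbers and fitted in R 4.3.3 with edgeR 4.0.16 (quasi-likelihood test). The fit used filterByExpr with a minimum count of 10 and a minimum total of 15, TMM scaling, 8 group means over all 24 libraries and 16 residual degrees of freedom. P-values were adjusted by Benjamini-Hochberg over 33214 transcripts, with a threshold of 0.05. Because the deposited values are fitted, the 2 libraries of a pool deviate from their group means together. Deviations correlated at 0.987 or more for libraries of a line with the same replicate number, and at 0.809 or less for those with other numbers. This takes the replicate number as the plant pool, gives 12 pools, and makes the 16 degrees of freedom too many, so p-values may be too small. For MAMP responses and their differences, the spread between pools cancels within a pool but still enters the error of this fit. Their p-values may therefore also be too large. CPM values and SDs use unrounded values. Ratios of summed counts carry exact intervals of 95% for counting error only. The scripts were tested on simulated data with independent libraries and no plant pools. That test therefore does not cover the effect of fitted values or shared pools on the p-values.

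Named transcripts, averaging at least 20 estimated counts except at the change of class, were the 10 rising and 6 falling with the largest mean MAMP response and the same sign in 4 lines, the 6 highest and 6 lowest in LD against LDX and the 5 highest and 5 lowest in R-11268 against R-11272 (control libraries that do not overlap), calls of the F test, and the transcripts at the change of class. Others are said to be chosen after their values were seen. Members, lists and rules were chosen with earlier results of these data known. Alternatives were DESeq2 1.42.0, other filters, a replicate block, each pool (its MAMP and control library) left out, libraries compared alone, sums over pools, other limits of the index, and, added after seeing the data, the 3 pools that stood apart left out and levels under 3 counts set to 3.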

Additional observations from a re-analysis of the deposited data

Results flagged for a closer look

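A test of the difference in MAMP response over the 4 lines (edgeR F test) called 4 chromosome 18 transcripts, and 0 to 3 when 1 pool was left out. The adjusted p was 0.0125 for Glyma18g35940.1, 0.0129 for Glyma18g42850.1, 0.0272 for Glyma18g18920.1 and 0.044 for Glyma18g00750.1. In the same order, the calls were lost in 14 of 17, 6 of 16, 8 of 17 and 12 of 16 alternative settings. These settings include the void replicate block, which kept all 4 calls and lends them no weight. That of Glyma18g35940.1 rests on 5.96 estimated counts in R-11268 and 2.98 in LDX. Groups of 3 libraries were too small to look for single outlying libraries by their gaps.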

How the results depend on the processing

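DESeq2 kept the 11 counts of calls within 1.5 times their values, as did sums over each pool for the 2 counts in control libraries they could give. An index from MAMP libraries, and levels under 3 counts set to 3, did so for the 4 counts of LD-like and LDX-like transcripts. With no filter 50 transcripts fell after MAMP. With a mean of 100 or more counts, 12 fell, calls within lines were 51 in R-11272, 58 in LD and 45 in LDX, the F test called 1, RIL differences were 12 in control and 10 in MAMP libraries, parental differences 15 and 22, and R-11268 was LDX-like for 7 and LD-like for 2, R-11272 for 5 and 4. Libraries compared alone gave 36 and 41 RIL differences and 54 and 65 parental ones. Without the 3 pools that stood apart 167 fell, calls within lines were 144 in R-11268, 193 in R-11272, 155 in LD and 122 in LDX, the F test called 10, parental differences in controls were 194, and LD-like transcripts numbered 25 in R-11268 and 61 in R-11272. LD-like transcripts in R-11268 were 19 with limits of 0.4 and 0.6 and 3 with a parental difference of 4-fold, where R-11272 was LDX-like for 29.

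The replicate block took out the spread between pools, and what remains in fitted values is no replicate error, so its counts of 423 higher, 613 lower, 644 in R-11268, 892 in R-11272, 878 in LD, 753 in LDX and 1014 by the F test are void. Leaving out each library pair in turn gave 134 to 155 risers, 25 to 40 fallers, 34 to 79 calls in R-11268, 47 to 98 in R-11272, 53 to 122 in LD, 39 to 89 in LDX and 0 to 3 by the F test. It gave 50 to 81 RIL differences in control and 51 to 74 in MAMP libraries, and 100 to 142 and 108 to 167 parental ones. R-11268 was LDX-like for 60 to 80 and LD-like for 9 to 13, R-11272 for 42 to 56 and 31 to 41. No direction reversed among the named transcripts in the settings tried. For a MAMP response, leaving out a pool could hardly reverse it, since the replicates of a line share a ratio. The cause of the shifts in the counts was not tested.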
